A study of Cavia porcellus with 34 samples.

Results

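Interferon response and antigen presentation genes were described in the hypothalamic paraventricular nucleus (PVN) of juvenile guinea pigs whose F0 ancestor received synthetic glucocorticoid (sGC) in pregnancy. The set was named by gene symbol and holds 9 genes: STAT2, IRF1, IRF7, IRF9, ISG15, B2M, TAP1, TAP2 and NLRC5. A row with the symbol was found for 6 of the 9, among 12114 rows in F1, 12207 in F2 and 12068 in F3; IRF7, IRF9 and TAP2 were not analysed here. All 6 passed a minimum mean of 10 normalized counts in F1 and F2, and 5 of 6 passed in F3, where NLRC5 had a mean of 9.08.

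RNA was sequenced from 32 female guinea pigs of the paternal line at postnatal day 40, and within each generation the sGC group was compared with the vehicle (Veh) group. F1 held 5 Veh and 5 sGC animals, F2 held 5 and 5, and F3 held 6 and 6. In the sGC groups the F0 mother was injected with the glucocorticoid betamethasone, and in the Veh groups with saline. F1 animals were exposed in utero, whereas F2 and F3 animals descended from them through males and were not themselves treated. The samples were punches of the anteromedial hypothalamus that contained the PVN, and neighbouring hypothalamic tissue may have been included. Sample sizes were independent litters per the study's methods.

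Type I interferon acts through a receptor whose kinases phosphorylate STAT2, which acts with IRF9 to switch on interferon-stimulated genes. Type II interferon induces IRF1, which drives the genes of the class I antigen presentation pathway. In brain tissue, microglia and vascular cells respond strongly to interferon, and class I presentation is kept low in most neurons.

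The level of PVN markers varied between animals. The sum of 7 neuroendocrine markers (such as the peptide hormones of the PVN) ranged from 94313 to 217016 normalized counts in F1 Veh. In F1 sGC the sum ranged from 22595 to 191137, and 7 of 7 markers had a fold change below 0 in F1. In F2 it ranged from 61090 to 102096 in Veh and from 84305 to 175321 in sGC, and 7 of 7 were above 0. In F3 that sum ranged from 16516 to 55734. Whether the tissue in the punches or the expression of these markers differed was not tested. Summed normalized counts per animal ran from 15573233 to 21935501 in F1, from 15645962 to 19435104 in F2 and from 18692048 to 18977539 in F3. In F1 Veh, animal SGM11 lay almost on the Veh mean. The SD of its log2 deviations from that mean was 0.018, against 0.121 to 0.189 in the other Veh animals. It held the highest F1 value of 0.0% of all genes. Normalization was inferred to have removed 1 direction in F1, along which the deposited values hardly varied. SGM11 carried 78.9% of that direction, against 3% to 8.6% in the other Veh animals. Whether normalization set its values was not tested, and the F1 sample sizes, SEs and p-values count it as a full animal. In F2 Veh, SGM22 and SGM28 had SDs of 0.289 and 0.316, against 0.092 to 0.152 in the others. In bulk tissue, fewer cells of a type and less RNA per cell cannot be told apart. Tables were normalized separately, so levels were compared only within a generation, and no gene length was at hand, so levels were not compared between genes.

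No gene of the set differed between sGC and Veh in any generation at an adjusted p under 0.05 (limma, Benjamini-Hochberg over all genes tested). The background rate of such genes was 0.657% in F1, 0% in F2 and 0.0506% in F3. With median-of-ratios scaling no gene of the set was called either, against 17.3%, 0% and 0.0421% of all genes. In F2 limma called none of 11965 genes, and 1395 of them had an unadjusted p under 0.05. STAT2, IRF1 and B2M in F3 had the lowest unadjusted p-values of the set, and all were higher in sGC, by 11.3%, 14.6% and 7.4%. At an unadjusted p under 0.05, 3 of the 5 genes tested in F3 were higher in sGC, against 6.19% of all genes tested in F3. The set was chosen with earlier results of these data known, so these shares cannot be read as a test of the set. The counts at that level in the set were 0 of 6 in F1, against 13.6% of all genes tested, and 0 of 6 in F2, against 11.7%. The F1 count was 1 with quantile normalization (TAP1, lower in sGC) and 1 without Veh animal SGM3 (NLRC5, higher in sGC). No gene of the set had groups without overlap, against 2.04%, 2.4% and 1.21% of all genes in F1, F2 and F3.

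**Figure D1:**
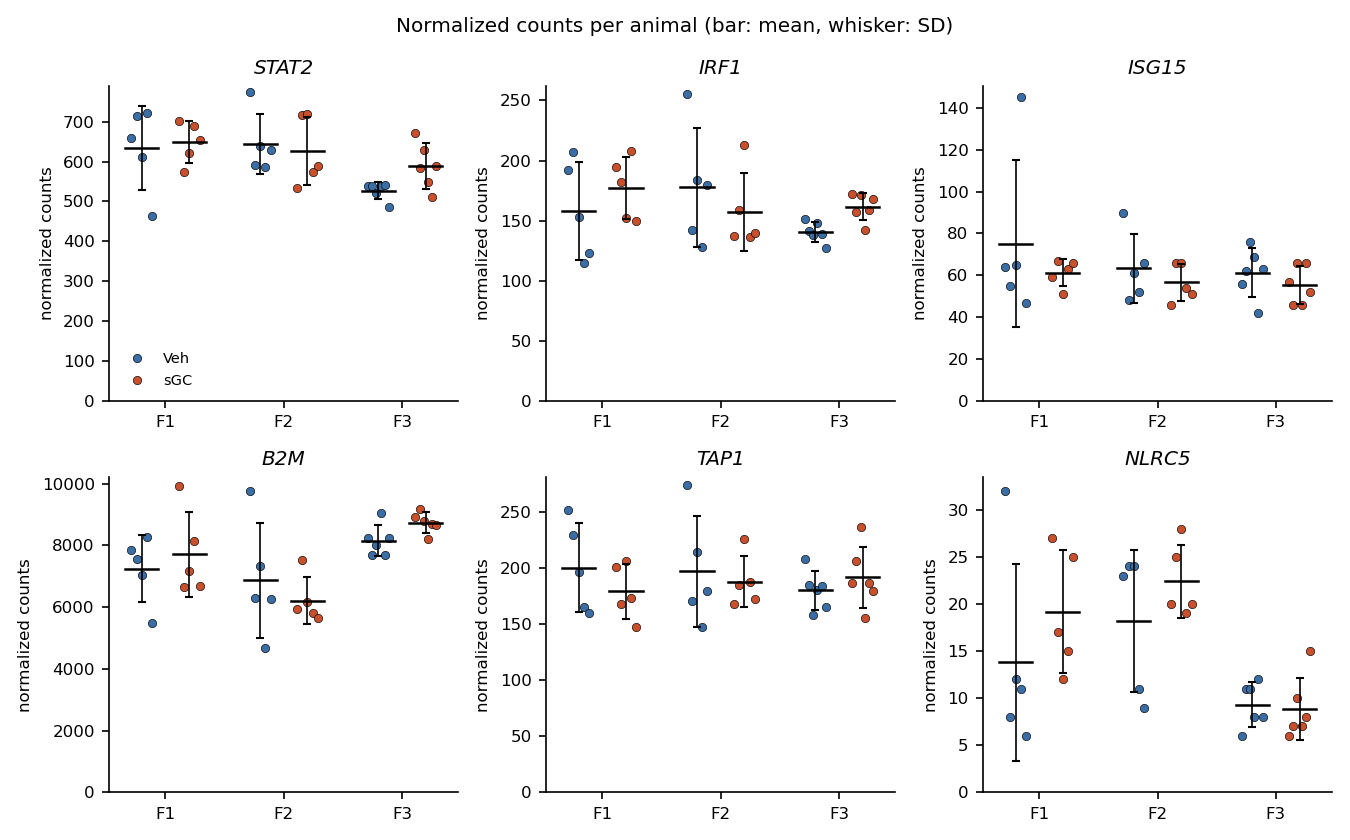
Normalized counts of the 6 genes in each animal (points, y axis from 0) by generation and group, with the group mean (bar) and SD (whisker). IRF1 in F3 lay between 127 and 151 in Veh and between 142 and 172 in sGC, and the highest value of ISG15 in F1 was 145, in a Veh animal.

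The transcription factor STAT2 is a signal transducer of the interferon receptors. In F1 Veh the normalized counts were 659, 714, 612, 722 and 464, and in F1 sGC they were 703, 574, 621, 689 and 655. The lowest value was from Veh animal SGM19, and the groups overlapped. The log2 fold change (sGC minus Veh, of value + 1) was 0.05 ± 0.13 (SE, n = 5 per group; limma adjusted p = 0.919), and it was -0.02 with median-of-ratios scaling.

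In F2 Veh, STAT2 was 774, 592, 638, 586 and 630, and in F2 sGC it was 534, 717, 719, 574 and 588. The highest value was from Veh animal SGM22, and the groups overlapped. The log2 fold change was -0.04 ± 0.11 (n = 5 per group; limma adjusted p = 0.886), 0.03 with median-of-ratios scaling and 0.03 without SGM22.

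In F3, STAT2 ranged from 485 to 542 in Veh (median 538.5) and from 512 to 672 in sGC (median 586). Of 6 sGC animals 5 lay above every Veh animal, and the sixth, SGM21 of the second sequencing batch, at 512, lay within the Veh range. The log2 fold change was 0.15 ± 0.06 (n = 6 per group; limma unadjusted p = 0.0173, adjusted p = 0.272). The animals analysed from the second batch were sGC only (its re-sequenced Veh libraries were not analysed here). With the first batch alone, of 6 Veh and 4 sGC animals, the value was 0.20 (limma adjusted p = 0.304).

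IRF1 is a transcription factor induced by type II interferon, which acts on antigen presentation genes. In F1 Veh its normalized counts were 192, 207, 153, 115 and 123, and in F1 sGC they were 195, 182, 152, 208 and 150. The groups overlapped, and 2 Veh animals lay below every sGC animal. The log2 fold change was 0.19 ± 0.18 (n = 5 per group; limma adjusted p = 0.714). It ran from 0.09 without SGM15 to 0.30 without SGM7, and was 0.07 with quantile normalization.

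In F2 Veh, IRF1 was 255, 142, 184, 128 and 180, and in F2 sGC it was 137, 159, 213, 136 and 140. The Veh animal SGM22 had the highest value and SGM28 the lowest. On the log2 scale the difference was -0.16 ± 0.19 (n = 5 per group; limma adjusted p = 0.742), and it was -0.02 without SGM22.

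In F3, IRF1 ranged from 127 to 151 in Veh (median 140) and from 142 to 172 in sGC (median 163.5). Of 6 sGC animals 5 lay above every Veh animal, and SGM6, at 142, lay within the Veh range. This gave a log2 fold change of 0.20 ± 0.06 (n = 6 per group; limma unadjusted p = 0.00656, adjusted p = 0.215), with a 95% interval from 0.06 to 0.33. With only the first batch it was 0.19 (limma adjusted p = 0.457).

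ISG15 is a ubiquitin-like protein that interferon induces strongly and that is attached to other proteins. In F1 Veh its normalized counts were 64, 55, 65, 145 and 47, and in F1 sGC they were 59, 67, 51, 63 and 66. The value of 145 was from Veh animal SGM15, and the other Veh animals lay at or below 65. Its log2 fold change was -0.18 ± 0.25 (n = 5 per group; limma adjusted p = 0.825), and without SGM15 it was 0.09.

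In F2 Veh, ISG15 was 90, 48, 61, 52 and 66, and in F2 sGC it was 46, 66, 66, 54 and 51. The highest value was again from SGM22. The value of sGC minus Veh on the log2 scale was -0.14 ± 0.19 (n = 5 per group; limma adjusted p = 0.778), and without SGM22 it was -0.01.

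In F3, ISG15 ranged from 42 to 76 in Veh (median 62.5) and from 46 to 66 in sGC (median 54.5), and the sGC range lay inside the Veh range. Its log2 fold change was -0.13 ± 0.14 (n = 6 per group; limma adjusted p = 0.734). Of the 5 genes tested in F3, ISG15 was the 1 with a fold change below 0.

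B2M encodes beta-2 microglobulin, the light chain of class I molecules. In F1 Veh its normalized counts were 7852, 7567, 7035, 8272 and 5472, and in F1 sGC they were 9938, 6646, 7185, 8131 and 6675. The highest was from sGC animal SGM4 and the lowest from Veh animal SGM19. In log2 terms sGC minus Veh was 0.09 ± 0.14 (n = 5 per group; limma adjusted p = 0.841).

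In F2 Veh, B2M was 9748, 6303, 7322, 4690 and 6274, and in F2 sGC it was 5925, 7519, 6181, 5817 and 5639. Veh animals SGM22 and SGM28 were the highest and the lowest of all. On the log2 scale the difference was -0.11 ± 0.155 (n = 5 per group; limma adjusted p = 0.787). It was 0.03 without SGM22 and -0.24 without SGM28.

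In F3, B2M ranged from 7682 to 9043 in Veh (median 8116.5) and from 8195 to 9192 in sGC (median 8742). The groups overlapped, since the Veh animal SGM5 lay at 9043 and 3 Veh animals lay below every sGC animal. This gave a log2 fold change of 0.10 ± 0.04 (n = 6 per group; limma unadjusted p = 0.0180, adjusted p = 0.276), with a 95% interval from 0.02 to 0.185. With only the first batch it was 0.11 (limma adjusted p = 0.479).

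TAP1 is a subunit of the transporter that moves peptides into the endoplasmic reticulum for class I loading. In F1 Veh its normalized counts were 251, 229, 196, 165 and 160, and in F1 sGC they were 201, 168, 206, 173 and 147. The groups overlapped, and the lowest value was from sGC animal SGM20. Its log2 fold change was -0.15 ± 0.16 (n = 5 per group; limma adjusted p = 0.767), and -0.21 with median-of-ratios scaling (limma adjusted p = 0.159).

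In F2 Veh, TAP1 was 274, 170, 214, 147 and 179, and in F2 sGC it was 168, 185, 226, 187 and 172. The Veh animals held the highest and the lowest value. The value of sGC minus Veh on the log2 scale was -0.04 ± 0.16 (n = 5 per group; limma adjusted p = 0.922), 0.03 with median-of-ratios scaling and 0.08 without SGM22.

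In F3, TAP1 ranged from 158 to 208 in Veh (median 182) and from 155 to 236 in sGC (median 186). The sGC range extended on both sides of the Veh range. In log2 terms sGC minus Veh was 0.08 ± 0.09 (n = 6 per group; limma adjusted p = 0.761).

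NLRC5 is a transactivator of class I genes. In F1 Veh its normalized counts were 32, 8, 12, 11 and 6, and in F1 sGC they were 27, 17, 12, 15 and 25. Veh animal SGM3 had the highest value of the 10, and the other Veh animals lay at or below 12. On the log2 scale the difference was 0.61 ± 0.38 (n = 5 per group; limma adjusted p = 0.522), with a 95% interval from -0.175 to 1.4. It was 0.96 without SGM3 (limma unadjusted p = 0.0147, adjusted p = 0.245) and 0.40 without Veh animal SGM19.

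In F2 Veh, NLRC5 was 23, 24, 24, 11 and 9, and in F2 sGC it was 20, 25, 28, 19 and 20. This gave a log2 fold change of 0.38 ± 0.30 (n = 5 per group; limma adjusted p = 0.628). In F3, where NLRC5 was below the minimum mean, it ranged from 6 to 12 in Veh (median 9.5) and from 6 to 15 in sGC (median 7.5), and without the filter the sGC group differed by -0.10 ± 0.23 on the log2 scale (limma adjusted p = 0.904).

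**Figure D2:**
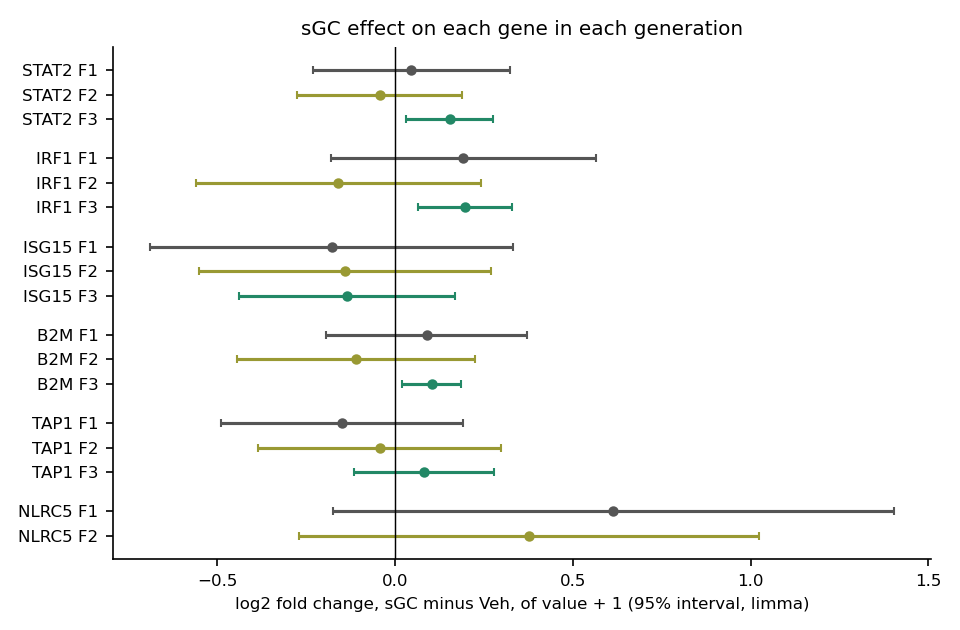
Log2 fold change (sGC minus Veh, of value + 1) of each gene in each generation, with 95% intervals from limma. The intervals of STAT2, IRF1 and B2M in F3 lie above 0, the other 14 intervals include 0, and no adjusted p is under 0.05.

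Without the Veh animal SGM11 the F1 values ran from -0.20 (ISG15) to 0.62 (NLRC5), and without SGM28 the F2 values ran from -0.27 (IRF1) to 0.23 (NLRC5), with no call in either.

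As a group, 4 of 6 genes had a fold change above 0 in F1, 1 of 6 in F2 and 4 of 5 in F3. Over all genes tested, the share above 0 was 63.8% in F1, 24.5% in F2 and 49% in F3. With median-of-ratios scaling the set's counts were 3 of 6 in F1, 3 of 6 in F2 and 4 of 5 in F3, against 50.9%, 49.2% and 49.8% of all genes. The median log2 fold change of the set was 0.07 in F1, -0.08 in F2 and 0.10 in F3, beside 0.07, -0.08 and -0.002 over all genes tested.

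The comparison of the sGC effect between generations addressed whether a gene moved differently in F1, F2 and F3. Of 16 differences, tested by exact permutation of treatment labels within each generation (two-sided), 0 had an adjusted p under 0.05 and 0 had an unadjusted p under 0.05. The lowest p was for IRF1, whose log2 fold change was lower by 0.36 in F2 than in F3 (exact permutation p = 0.108, adjusted p = 0.874). The largest difference for STAT2 was between F2 and F3, at -0.20 (exact permutation p = 0.136, adjusted p = 0.874). With median-of-ratios scaling the lowest p was for TAP1, at a difference of -0.29 between F1 and F3 (exact permutation p = 0.0455, adjusted p = 0.729).

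The other genes of the pathway were taken from 10 lists (receptors and kinases, STAT and IRF factors, negative regulators, sensors, antiviral effectors, ISG15 conjugation, class I chains, class I loading, immunoproteasome, class II genes). Of 171 listed genes, 90 were tested in F1, 91 in F2 and 91 in F3. None passed an adjusted p of 0.05 in any generation, and at an unadjusted p under 0.05 there were 12 in F1 (13.3%), 1 in F2 (1.10%) and 12 in F3 (13.2%). Those shares in F1 and F3 were near the background of 13.6% and 13.1%, and in F2 the share was below the 11.7% of all genes. With median-of-ratios scaling 11 of the 90 genes passed in F1 (12.2%, against 17.3% of all genes).

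Of 8 negative regulators, which dampen interferon signalling, 8 had a fold change above 0 in F1 (5 with median-of-ratios scaling), 2 in F2 (5 with scaling) and 4 in F3. Of 3 genes of ISG15 conjugation, which attach ISG15 to proteins, 2 were above 0 in F1, 1 in F2 and 1 in F3 on either scale. The gene below 0 in F1, UBE2L6, had -0.46 ± 0.21 (limma unadjusted p = 0.0415, adjusted p = 0.345), with groups that did not overlap. With median-of-ratios scaling it passed in F1, at -0.52 (limma adjusted p = 0.019), as did 17.3% of all genes. Its unscaled value was -0.40 in F2 and 0.003 in F3.

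Of the 7 receptor and kinase genes, 4 had a fold change above 0 in F1 (2 with median-of-ratios scaling) and 4 in F3 on either scale. In F1, IFNGR2, a chain of the type II interferon receptor, had a log2 fold change of 0.295 ± 0.13 (n = 5 per group; limma adjusted p = 0.310), and JAK1 had 0.15. In F2 all 7 tested genes of the list were below 0 without scaling, and 4 were above 0 with median-of-ratios scaling, with an unscaled median of -0.07 against -0.08 over all genes. In F3 the median was 0.02, and IFNAR2, a chain of the type I receptor, had 0.06.

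Among the 7 other STAT and IRF factors, all 7 were above 0 in F3 with and without median-of-ratios scaling, with an unscaled median of 0.06, and in F1 4 of 7 were (3 with scaling). IRF8, a factor of microglia and other myeloid cells, had the largest value in F3, at 0.25 ± 0.09 (limma adjusted p = 0.263). STAT6, which relays interleukin signals, had 0.28 in F1 and 0.006 in F3.

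Sensors detect foreign nucleic acid, and effectors block viral replication. Of 12 sensor and adaptor genes 10 were above 0 in F1, 2 in F2 and 6 in F3, and with median-of-ratios scaling 9, 5 and 7. Of the effectors tested, 18 of 28 were above 0 in F1, 3 of 26 in F2 and 18 of 27 in F3, and with scaling 14, 10 and 18. TLR7, an endosomal sensor of RNA, had 0.33 ± 0.11 in F3 (n = 6 per group; limma adjusted p = 0.221), and IFIH1 had 0.58 ± 0.24 in F1 (n = 5 per group; limma adjusted p = 0.286). LGALS3BP, a secreted glycoprotein induced by interferon, had 0.20 ± 0.06 in F3 (limma adjusted p = 0.169).

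OAS3, an enzyme that senses double-stranded RNA, had a lower mean in sGC in F2 and F3. In F2 Veh it was 242, 374, 262, 386 and 317, and in F2 sGC it was 243, 247, 170, 272 and 179. Its log2 fold change was -0.51 ± 0.17 (limma unadjusted p = 0.00936, adjusted p = 0.268). In F3 it ranged from 200 to 521 in Veh and from 160 to 275 in sGC, and the log2 fold change was -0.63 ± 0.20 (limma unadjusted p = 0.00709, adjusted p = 0.215). In both generations the groups overlapped.

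Of 4 class I chain and related genes, 4 were above 0 in F1, 2 in F2 and 2 in F3 on either scale. Of 9 class I loading genes, 7 were above 0 in F1, 1 in F2 and 7 in F3, and with scaling 5, 6 and 7. Of the immunoproteasome genes, 1 of 5 was above 0 in F1, 1 of 7 in F2 and 4 of 7 in F3, and with scaling 1, 3 and 4. Of the class II genes, 5 of 7 were above 0 in F1, 0 of 8 in F2 and 3 of 7 in F3, and with scaling 5, 1 and 3.

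In the class I pathway, TAPBP, which holds empty class I molecules at the transporter, had 0.11 ± 0.04 in F3 (limma adjusted p = 0.264). MR1, a class I-like molecule, had 0.235 ± 0.09 in F3 (limma adjusted p = 0.271), and it had 0.39 in F1. Of the immunoproteasome list, PSMB9 had -0.06 in F3, and PSMB10 had -0.20 in F1. CD74, the chaperone of class II molecules, had 0.16 in F3 and -0.32 in F2. CREB1, a factor that binds class II promoters, had 0.44 ± 0.135 in F1 (limma unadjusted p = 0.00347, adjusted p = 0.127), and with median-of-ratios scaling it passed, at 0.38 (limma adjusted p = 0.0047).

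**Figure D3:**
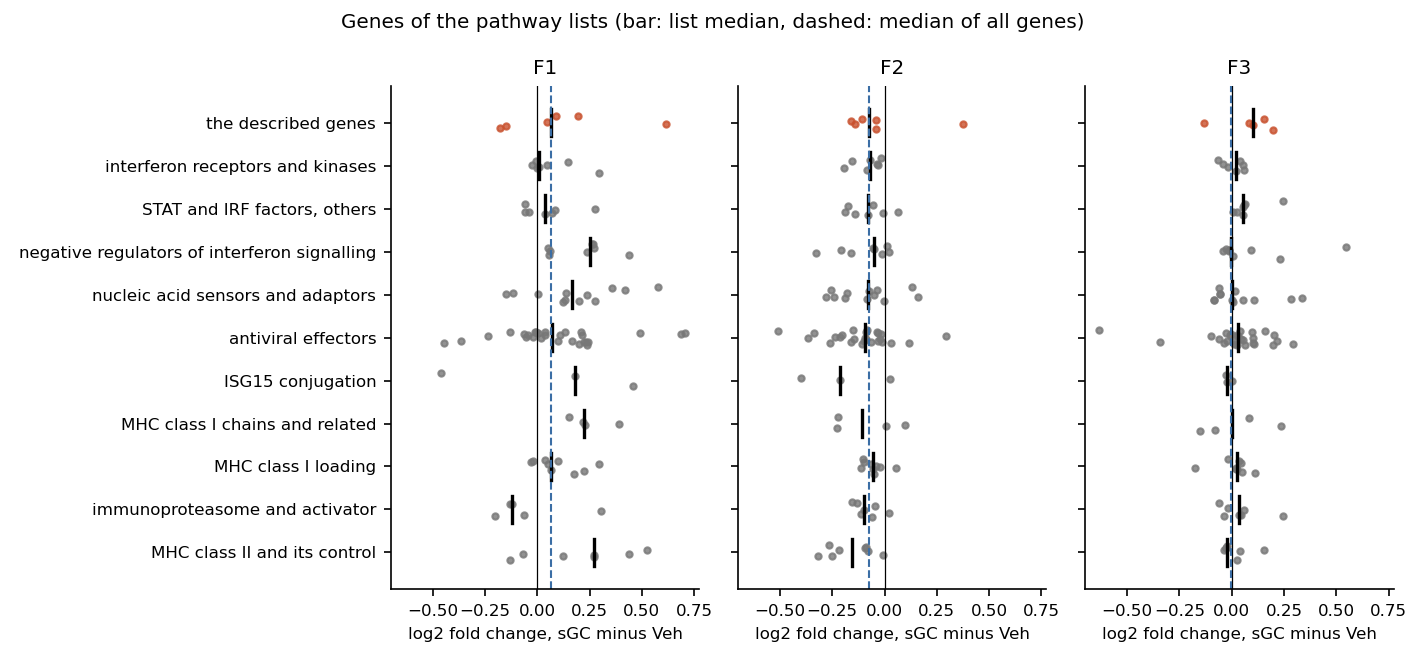
Log2 fold change (sGC minus Veh) of each tested gene of the described set (orange) and of the 10 pathway lists (grey) in F1, F2 and F3, with list medians (bars), 0 (solid line) and the median of all genes (dashed line). In F2 all 7 receptor and kinase genes lie left of 0, as does the median of all genes (with median-of-ratios scaling 4 of the 7 lie right of 0), and in F3 the 10 list medians lie between -0.025 and 0.055.

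Across the 32 animals, the 5 genes tested in all generations varied together to different degrees. Values are correlations of deviations from the group mean on log2 values, given without a test, since animals share normalization and depth. IRF1 and TAP1 had the highest of 10 pairs, at r = 0.80, or 0.66 with median-of-ratios scaling (0.18 within F1, 0.90 within F2 and 0.67 within F3). ISG15 and TAP1 had the lowest, at 0.12. The genes most like the mean of the 5 were ACSF2, RIN2, CCDC102A, C1S and LTBR, each at r = 0.89 over 32 animals, and the most like IRF1 was LTBR, at 0.91. With median-of-ratios scaling ACSF2, CSF1, RIN2, IDUA and C1S were the most like, at 0.83 to 0.85.

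The mean of the 5 genes varied with the mean of 12 microglia markers, at r = 0.82, or 0.69 with median-of-ratios scaling. Within F1, F2 and F3 the scaled r was 0.74, 0.81 and 0.38. It was 0.64 without the 2 animals with marker values farthest from the median, and Spearman's rho over all animals was 0.66. Some other cell types gave positive values over all animals too. The r was 0.75 for astrocyte markers (0.59 with scaling), 0.55 for endothelial (0.33) and 0.53 for pericyte and smooth muscle markers (0.29). Within F1, F2 and F3 the scaled r was 0.37, 0.77 and -0.17 for astrocyte markers. It was -0.0, 0.91 and -0.28 for endothelial markers, and -0.39, 0.96 and -0.26 for pericyte and smooth muscle markers. These 3 lists thus had their highest r in F2 and a negative r in F3. The median r of all other single genes was 0.36, or -0.02 with scaling, and that of 86 other pathway genes was 0.52, or 0.30. These are values of single genes, an unlike measure to a mean of several markers, so they give no baseline for the marker lists. With 5 neuron markers the scaled r was -0.79, at -0.62, -0.98 and 0.28 within F1, F2 and F3, and -0.63 without the 2 animals farthest from the median. Without scaling the neuron r was -0.24 (0.08, -0.52 and 0.52 within F1, F2 and F3), so the relation to neuron markers depended on the scaling. The part of these cell types in the levels of the set was not tested.

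**Figure D4:**
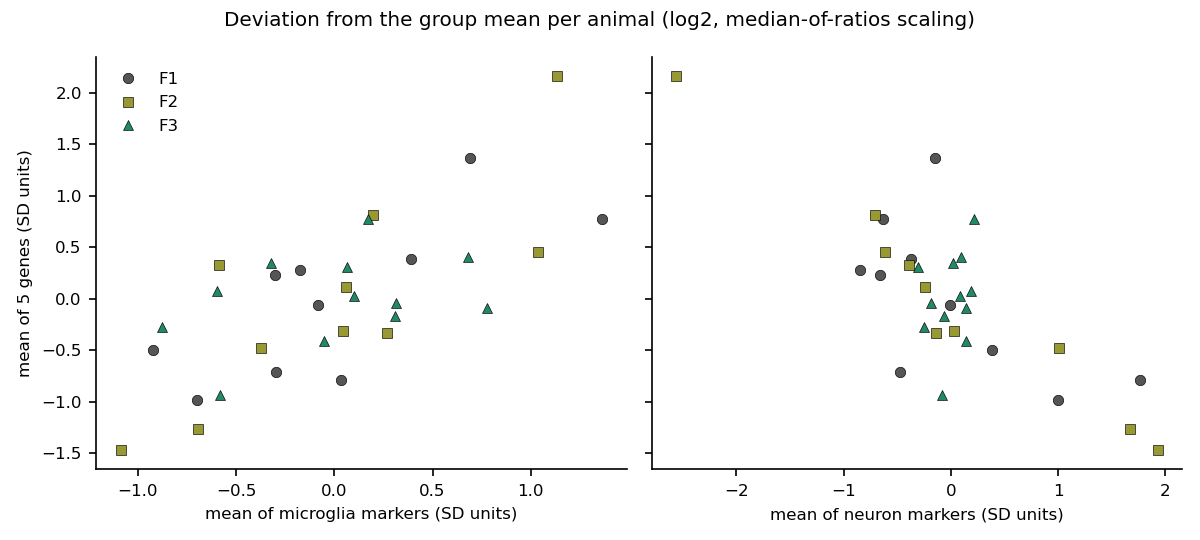
Mean deviation of 5 genes (y axis) against the mean deviation of 12 microglia markers (left) and 5 neuron markers (right) from the group mean, in SD units of log2 values with median-of-ratios scaling. Each point is an animal, with the generation by shape, and the points of F2 span -1.47 to 2.16 on the y axis.

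In F3 most microglia markers lay on the same side of 0 as STAT2, IRF1 and B2M. Of 13 analysed, of 16 listed, 11 had a fold change above 0, against 49% of all genes tested. Their median was 0.11, beside -0.002 over all genes, and none was at 0 in any animal. Their summed level ranged from 4906 to 5901 in Veh and from 5445 to 6103 in sGC. Of the perivascular macrophage markers tested, 4 of 4 were above 0 in F3, with a median of 0.225. Oligodendrocyte markers were above 0 in 8 of 8 (median 0.08), and pericyte and smooth muscle markers in 6 of 8 (0.045). Of the latter 8, 3 (ACTA2, MYH11 and TAGLN) were higher in sGC at an unadjusted p under 0.05, against 6.19% of all genes tested. PDGFRB and KCNJ8 of that list were below 0. Of the 13 microglia markers, 3 were also higher at that level. Endothelial markers were above 0 in 7 of 12 (median 0.02), astrocyte markers in 4 of 8 (0.003) and neuron markers in 1 of 5 (-0.03). The part of these cell types in the values of STAT2, IRF1 and B2M in F3 was not tested. In F2, where B2M and IRF1 were below 0, 12 of 12 microglia markers were below 0, with a median of -0.24. Of all genes tested in F2, only 24.5% were above 0, and the median was -0.08. The summed microglia level in F2 ranged from 4169 to 6159 in Veh and from 3660 to 5162 in sGC. Endothelial markers (12 of 12, or 11 of 12 with median-of-ratios scaling) and oligodendrocyte markers (9 of 9) were also below 0 in F2, and the part of these cell types in the F2 values was not tested. In F1, 9 of 13 microglia markers were above 0, against 63.8% of all genes tested (7 with median-of-ratios scaling, against 50.9%). Endothelial markers were above 0 in 12 of 12 in F1 (median 0.39), oligodendrocyte markers in 8 of 8 (0.26) and pericyte and smooth muscle markers in 5 of 5 (0.32). These 3 counts were the same with median-of-ratios scaling. Astrocyte markers were above 0 in 7 of 8 (0.16), neuron markers in 5 of 6 (0.17) and PVN neuroendocrine markers in 0 of 7 (-0.94). The part of these cell types in the F1 values was not tested.

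A few animals carried the highest values. In F2, Veh animal SGM22 had the highest value of 5 of the 6 genes, and with median-of-ratios scaling of 40 of 91 other pathway genes (44.0%), against 17.0% of all genes. On that scale SGM22 also had the highest F2 sums of microglia (5717), endothelial (15148) and pericyte and smooth muscle (7246) markers, and their part in its values was not tested. In F1, on the same scale, sGC animal SGM4 had the highest value of 33 of 90 other pathway genes (36.7%), against 16.3% of all genes. It had the highest value of 0 of the 6 genes of the set, and Veh animals SGM15 and SGM3 had that of 3 and 2. With median-of-ratios scaling SGM4 had the highest F1 sums of microglia (8907), endothelial (19704) and pericyte and smooth muscle (13613) markers. Its sum of PVN neuroendocrine markers was the lowest in F1, at 21654. The part of these cell types in the values of SGM4 was not tested. In F3 no animal had more than 17.6% of the pathway genes at their highest.

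**Figure D5:**
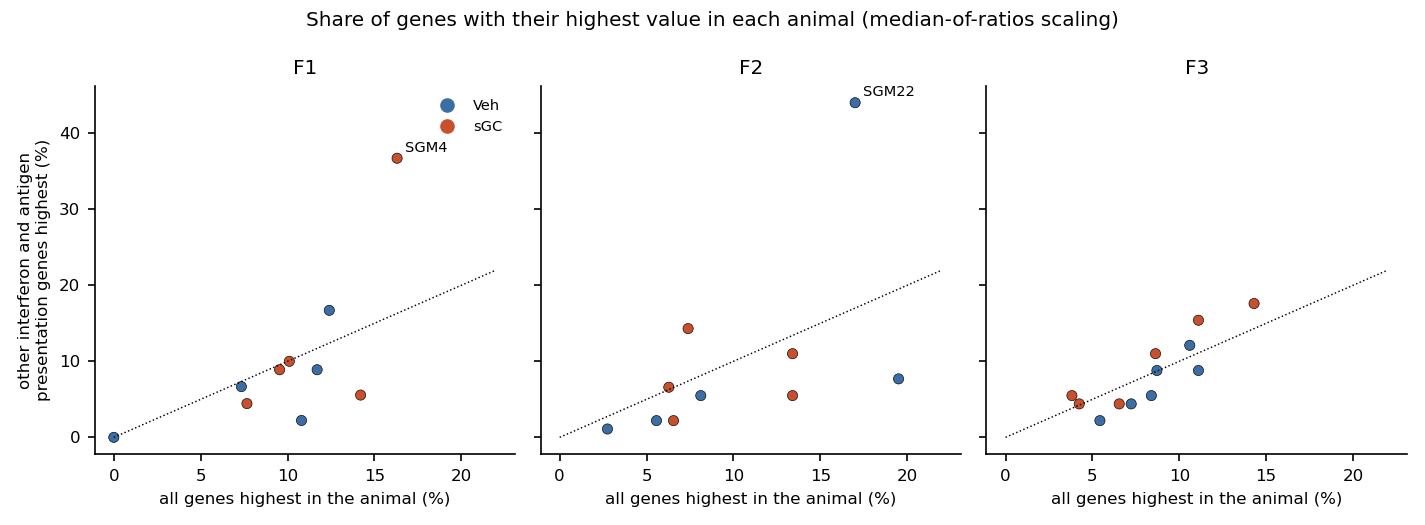
Percent of the other pathway genes (y axis) and of all genes (x axis) that have their highest value in each animal, with the dotted line of equal shares. Veh animal SGM22 in F2 (44.0%) and sGC animal SGM4 in F1 (36.7%) lie far above the line.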

How the data were processed

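PVN RNA was sequenced as mRNA libraries in the 32 animals described. The authors aligned the reads to the guinea pig genome (cavPor3), counted them per gene and deposited the counts after residual normalization (RUVSeq, with ComBat first in F3), rounded to whole numbers, a unit treated here as a score. The submitters' processing notes name TopHat2 and edgeR. Columns of the authors' own comparisons (fold change, test statistic and p-values) were not used. Re-sequenced F3 Veh libraries were not analysed here.

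Values were taken as log2(value + 1) without further scaling, a scale that understates the change of low genes. Genes with a mean under 10 were left out, and each generation was fitted in limma 3.58.1 (R 4.3.3, moderated with a trend). Differences between generations were tested by exact permutation with Python 3.11.15 and numpy 2.4.6. Adjusted p-values are Benjamini-Hochberg at a threshold of 0.05. Directions removed by normalization were inferred as those along which the deposited log2 values hardly varied. The 1 direction inferred in F1 and F2 and the 2 in F3 leave fewer independent animals than n. In F1 that direction lay mostly in Veh animal SGM11 (78.9%), which n counts in full. Alternatives were median-of-ratios, total and quantile scaling, pseudocounts of 0.5 and 5, no filter or a mean of at least 50, removed directions as covariates, leaving out each animal, and, in F3, batch as a covariate or the first batch only. Genes most like the set were taken by correlation over the animals. Named list genes were the 2 highest and 2 lowest per list and generation among genes with a mean of at least 50. Those shown are a choice from these made after the values were seen. UBE2L6, with a mean of 44.5 in F1, is named outside this rule and was also chosen after its values were seen. Not every gene the rule names is reported here. Members and lists were chosen with earlier results of these data known. Scripts were tested on simulated data.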

Additional observations from a re-analysis of the deposited data

Results flagged for a closer look

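ISG15 in F1 Veh animal SGM15 was 145 normalized counts, apart from the 47 to 65 of the other 4 Veh animals. STAT2 in F3 Veh animal SGM1 was 485, below the 520 to 542 of the other 5 Veh animals. Of 36 combinations of a gene and a group examined, 2 held such an animal, and chance gives about 1.8. The same animals recur across genes, so these combinations are not independent.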

How the results depend on the processing

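No paired analysis was possible because the Veh and sGC groups of a generation share no animal numbers. The number of genes of the set under the threshold was 0 in every alternative run in each generation. Of all genes, F1 had 78, against 2051 with median-of-ratios scaling, 1943 scaled to the mean total, 2084 with quantile normalization and 15 to 474 when an animal was left out (15 without SGM15, 24 without SGM11, 29 without SGM19, 133 without SGM20, 151 without SGM12, 474 without SGM7). F2 had 0, against 42 with quantile normalization, 17 with a mean of at least 50 and 0 to 114 when an animal was left out (114 without SGM28, 86 without SGM22, 23 without SGM30). F3 had 6, against 1 with removed directions as covariates, 3 with batch as a covariate, 2 with the first batch only and 1 to 15 when an animal was left out (15 without SGM18, 13 without SGM14, and 1 to 3 without any other animal except SGM22 of the second batch, at 5). STAT2 in F1 was -0.016 with median-of-ratios, -0.011 with total and -0.038 with quantile scaling. STAT2 in F2 was 0.031, 0.041 and 0.009 with the same scalings, and TAP1 in F2 was 0.031 and 0.040 with the first 2. Leaving out an animal gave ranges of -0.062 to 0.097 for STAT2, -0.314 to 0.087 for ISG15 and -0.008 to 0.141 for B2M in F1, and of -0.095 to 0.025 for STAT2, -0.237 to 0.026 for B2M and -0.139 to 0.084 for TAP1 in F2. The sign changed in F1 without SGM19 for STAT2 and B2M, without SGM4 for B2M (-0.007) and without SGM15 for ISG15, and in F2 without SGM22 for STAT2, B2M and TAP1 and without SGM21 for STAT2 (0.012). The causes were not tested. In F3, 3 of 5 genes had an unadjusted p under 0.05 and 4 of 5 were above 0 in all 22 alternatives. Small groups and rounded, normalized values limit these comparisons.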
